A study of Mus musculus with 2 samples.

Results

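The genes followed here were 7 that belong to the RANKL system and to the M cell, the antigen-sampling cell of the gut epithelium: Tnfsf11, Tnfrsf11a, Tnfrsf11b, Spib, Gp2, Marcksl1 and Tnfaip2. They were taken by gene symbol, with every probe set that the platform annotation gives to that symbol alone, which made 7 of 18193 named genes and 15 of 45101 probe sets. They were chosen because Tnfsf11 and Tnfrsf11b were far lower on one of the arrays, so the differences of the 7 genes are a description and were not tested.

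The arrays measured RNA of colon mucosal scrapings from C57BL/6 mice treated for 3 days with 3% DSS (dextran sulfate sodium), which damages the lining of the colon. The Hif-2αΔIE mice lack Epas1, the gene of the transcription factor HIF-2α, in a tissue that the labels leave unexplained and that is read here as the intestinal epithelium. The Hif-2αF/F mice carry the intact conditional alleles, and both genotypes received DSS, so no uninjured colon stands beside them. The labels put the mice at 6 to 8 weeks of age and the design text at 7 weeks. The sources used here do not name the promoter that drives Cre. The design text counts 5 Hif-2αΔIE and 6 Hif-2αF/F mice, but 1 array was analysed per genotype, and the sources used here do not say whether it holds pooled RNA. There is thus no spread between replicates, no standard error and no p-value, and each difference below compares these 2 arrays only.

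RANKL, the product of Tnfsf11, is a ligand of the tumour necrosis factor family. It binds its receptor RANK (Tnfrsf11a), and osteoprotegerin (Tnfrsf11b) is a soluble decoy that takes RANKL up before RANK can. The system is best known from bone, where RANKL drives osteoclast formation. In the gut, stromal cells under lymphoid follicles present RANKL to the epithelium above them, and cells of that epithelium become M cells, which carry particles and bacteria from the lumen to the follicle. Marcksl1 and Tnfaip2 are switched on early in this process, the transcription factor Spi-B (Spib) is needed for M cells to mature, and glycoprotein 2 (Gp2) is an uptake receptor of the mature cell.

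The unit is log2 expression as summarised by RMA (robust multi-array averaging), and a difference is Hif-2αΔIE minus Hif-2αF/F, so that -1 is 2-fold lower on the Hif-2αΔIE array. A gene was represented by its brightest probe set and was kept where the higher of its values reached 6.11, the median over all probe sets. A gene kept through 1 array only is thus higher on that array by the rule itself. RMA compresses differences of dim probe sets and makes no detection call, so a value under 6.11 is given as a reading and not as absence. The labels were set beside the 4 control probe sets for Cre recombinase. These read 7.86 to 10.01 on the Hif-2αΔIE array and 2.92 to 4.22 on the Hif-2αF/F array. Other control probe sets were not compared, so which RNA gave these readings was not determined. Epas1 itself read 11.77 on the Hif-2αΔIE array and 11.90 on the Hif-2αF/F array, and where its probe set lies relative to the deleted part was not determined. All 10 colon epithelium markers, among them Car1, Muc2 and Epcam, passed the filter; 7 were higher and 3 lower, with a median difference of 0.15. Cdx2, the factor of intestinal identity, was 2.03-fold higher (11.51 on the Hif-2αΔIE array and 10.49 on the Hif-2αF/F array), and the others were under 2-fold. Levels are not compared between genes, since probe sets bind with different strength.

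Of the 7 genes, 6 passed the filter and 5 of these were at least 2-fold lower on the Hif-2αΔIE array, among 11899 genes kept, of which 5.30% were at least 2-fold lower and 1.15% at least 2-fold higher. Because the genes were picked on this contrast, nothing is read from that count. Gp2 did not pass the filter. Both exceptions, the receptor Tnfrsf11a and Gp2, differed by at most 0.20. The median difference over the 7 genes was -1.60, and over all genes kept it was 0.02, with quartiles of -0.18 and 0.19. Of the 15 probe sets, 13 were lower on the Hif-2αΔIE array, 11 of them at least 2-fold.

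**Figure D1:**
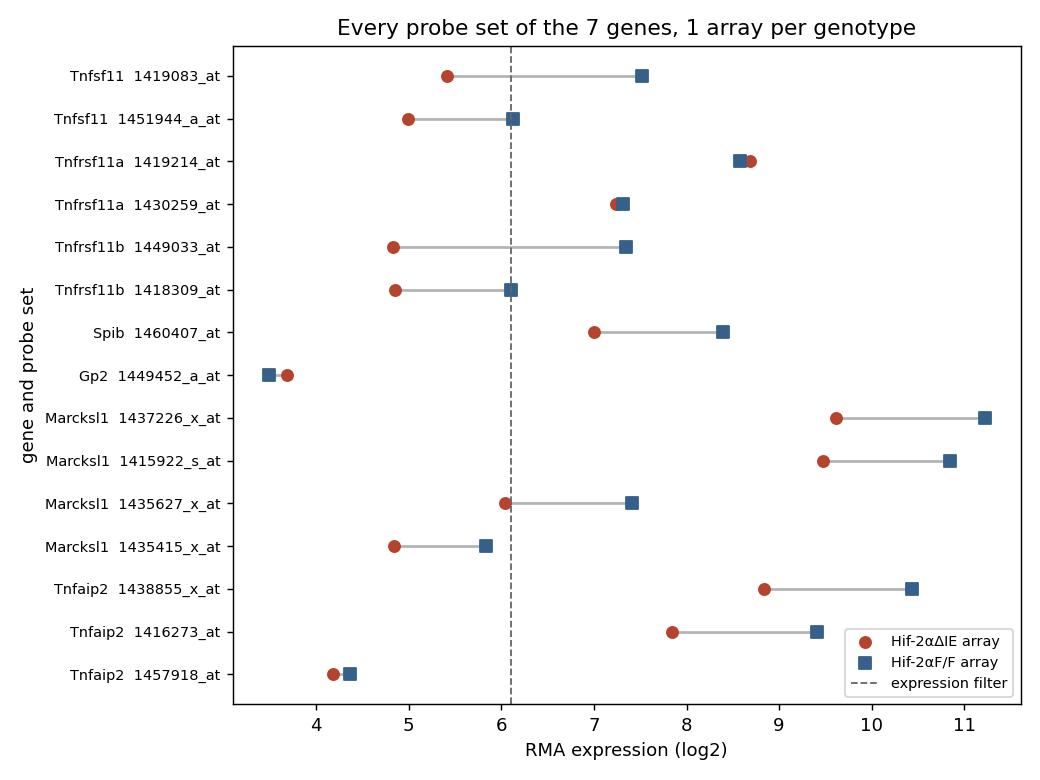
Expression (log2, horizontal axis) of each of the 15 probe sets on the Hif-2αΔIE array (circles) and the Hif-2αF/F array (squares), with the filter level of 6.11 as a dashed line. For both genes of the ligand and its decoy the circles lie under the line, the receptor's circles and squares nearly coincide at 7.24 to 8.69, and Gp2 lies at 3.49 to 3.69.

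The ligand gene Tnfsf11 lies on chromosome 14 of the mouse (GRCm38.p6 annotation, 78277446 to 78308043). Its brighter probe set, 1419083_at, read 5.41 on the Hif-2αΔIE array and 7.52 on the Hif-2αF/F array, a difference of -2.11. Its dimmer probe set, 1451944_a_at, read 4.99 on the Hif-2αΔIE array and 6.13 on the Hif-2αF/F array, a difference of -1.14. Both probe sets of the ligand were thus lower on the Hif-2αΔIE array and below the filter level there, while the Hif-2αF/F array lay above it, barely so for the dimmer one. They differed from each other by 0.97, which is more than usual: over the 5110 genes with a second probe set above the filter, the gap between the 2 brightest had a median of 0.10 and a 95th percentile of 0.41. Of 189 such genes that were at least 2-fold lower, 20 had a gap at least as wide as that of Tnfsf11. In the ranking of all genes kept by their difference Tnfsf11 was number 38 from the lowest.

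The decoy gene Tnfrsf11b (chromosome 15, 54250619 to 54278484) showed the lowest difference of the 7 genes. Probe set 1449033_at read 4.83 on the Hif-2αΔIE array and 7.35 on the Hif-2αF/F array, a difference of -2.53, which ranked number 18 from the lowest. Probe set 1418309_at read 4.85 on the Hif-2αΔIE array and 6.10 on the Hif-2αF/F array, a difference of -1.25, and stayed just under the filter on both. Its probe sets lay 1.28 apart. Ligand and decoy were picked because both were lower, and all 4 of their readings on the Hif-2αΔIE array lie below the filter, so their ratio cannot be read from these arrays.

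The receptor gene Tnfrsf11a (chromosome 1, 105780673 to 105849444) did not share this difference. Probe set 1419214_at read 8.69 on the Hif-2αΔIE array and 8.58 on the Hif-2αF/F array, and probe set 1430259_at read 7.24 on the Hif-2αΔIE array and 7.31 on the Hif-2αF/F array. The differences, 0.11 and -0.07, lie inside the quartiles of all genes, both probe sets were above the filter on both arrays, and the difference of the ligand lay 2.22 below that of the receptor. RANK is found on the gut epithelium and on myeloid cells, and its level here is that of the whole scraping.

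Among the M cell genes, Marcksl1 (chromosome 4, 129513581 to 129515981), which encodes a cytoskeletal regulator of the MARCKS family, read 9.61 on the Hif-2αΔIE array and 11.22 on the Hif-2αF/F array by its brightest probe set 1437226_x_at, a difference of -1.61 (3.06-fold lower). Its other 3 probe sets were 2.58-fold, 2.59-fold and, for the dimmest, 2.01-fold lower, and the levels of all 4 on the Hif-2αF/F array ran from 5.84 to 11.22. All carry an identifier ending in _s_at or _x_at, which marks probes that can match further transcripts. Tnfaip2 (chromosome 12, 111442450 to 111455018), which encodes M-Sec, a protein of membrane protrusions and nanotubes, read 8.84 on the Hif-2αΔIE array and 10.44 on the Hif-2αF/F array by probe set 1438855_x_at (-1.60, 3.03-fold lower). Its second probe set, 1416273_at, read 7.84 on the Hif-2αΔIE array and 9.41 on the Hif-2αF/F array (-1.56). The third, 1457918_at, was below the filter on both arrays, at 4.18 on the Hif-2αΔIE array and 4.37 on the Hif-2αF/F array, and differed by only -0.20. The bright probe sets of Tnfaip2 were thus 0.04 apart.

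Spib (chromosome 7, 44525995 to 44532087), which encodes the ETS factor Spi-B, has 1 probe set, 1460407_at. It read 7.00 on the Hif-2αΔIE array and 8.39 on the Hif-2αF/F array, a difference of -1.39 (2.63-fold lower), with both readings above the filter. Gp2 (chromosome 7, 119442537 to 119459272), which also has 1 probe set (1449452_a_at), read 3.69 on the Hif-2αΔIE array and 3.49 on the Hif-2αF/F array. Both readings lie far below the filter and below the 25th percentile of their arrays (4.37 on the Hif-2αΔIE array and 4.32 on the Hif-2αF/F array), so these arrays give no usable comparison of this marker of mature M cells.

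**Figure D2:**
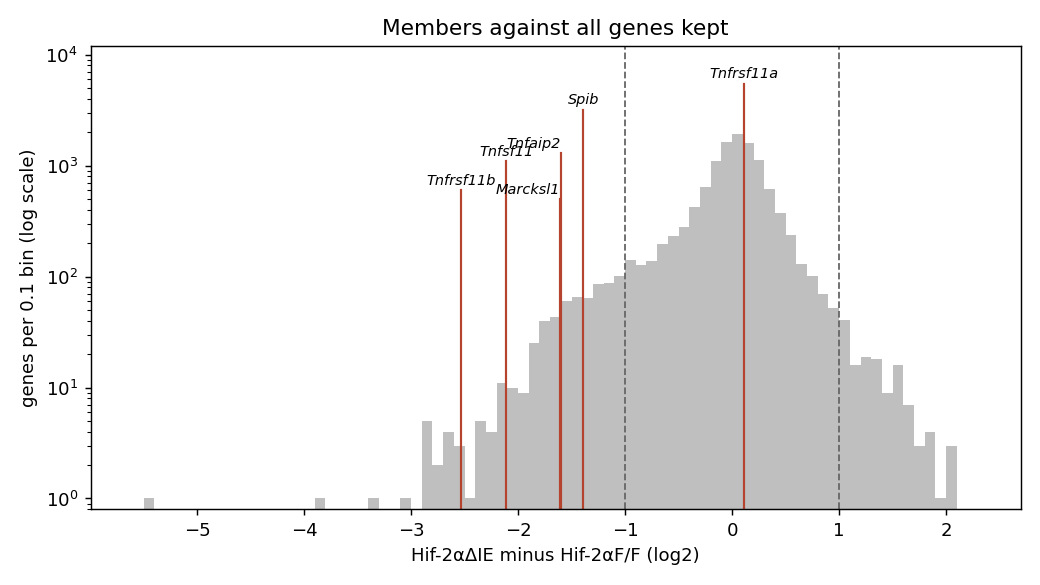
Number of genes kept (vertical axis, log scale) by difference between the Hif-2αΔIE and Hif-2αF/F arrays (log2, bins of 0.1), with the 6 members that passed the filter as vertical lines of arbitrary height and 2-fold as dashed lines. Tnfrsf11b and Tnfsf11 lie in the sparse lower tail at -2.53 and -2.11, Marcksl1, Tnfaip2 and Spib between -1.61 and -1.39, and Tnfrsf11a near the peak at 0.11.

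The regions before the start sites of 3 of the lower genes are shown because these genes were all lower and the targeted gene, Epas1, encodes a DNA-binding factor. Sequences are the 250 bases upstream of the RefSeq start (GRCm38.p6), 5′ to 3′ on the gene's strand, with matches to the motifs below in capitals. For Spib, the last 16 of these bases lie inside the gene's annotated span. Tnfsf11 is chr14:78308044-78308293 on the minus strand, Spib chr7:44532072-44532321 on the minus strand and Marcksl1 chr4:129513331-129513580 on the plus strand.
Tnfsf11: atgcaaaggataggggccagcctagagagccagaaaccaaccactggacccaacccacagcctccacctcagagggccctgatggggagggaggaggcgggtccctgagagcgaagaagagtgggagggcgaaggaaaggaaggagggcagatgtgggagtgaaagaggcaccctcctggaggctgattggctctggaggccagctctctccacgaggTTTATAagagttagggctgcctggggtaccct
Spib: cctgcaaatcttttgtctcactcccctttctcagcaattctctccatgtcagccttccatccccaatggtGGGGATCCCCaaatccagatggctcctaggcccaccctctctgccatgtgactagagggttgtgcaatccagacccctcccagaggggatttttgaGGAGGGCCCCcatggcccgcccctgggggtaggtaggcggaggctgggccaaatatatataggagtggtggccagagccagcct
Marcksl1: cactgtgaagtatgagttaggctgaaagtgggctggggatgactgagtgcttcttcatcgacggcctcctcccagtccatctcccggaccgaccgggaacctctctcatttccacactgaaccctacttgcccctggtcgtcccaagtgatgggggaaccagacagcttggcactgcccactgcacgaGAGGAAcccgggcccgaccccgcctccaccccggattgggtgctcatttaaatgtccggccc

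The motifs were searched on both strands of 300-base windows, the 250 bases upstream and the first 50 of the transcript, which were at hand for 6 of the 7 genes (Tnfrsf11b was not among them). The core of the hypoxia response element, to which HIF factors bind (ACGTG or GCGTG), was in the windows of Tnfsf11, Tnfrsf11a and Tnfaip2, 3 of 6, against 43.8% of all 32851 windows. The match of Tnfsf11 lies at bases 12 to 16 of the transcript, outside the stretch printed above. A match to the NF-κB consensus was in the windows of Spib, where it occurs at 180 to 171 and at 84 to 75 bases upstream (capitals), and of Tnfaip2, against 8.46% of all windows. The GAGGAA core that PU.1 and Spi-B bind was in the windows of Marcksl1, at 62 to 57 bases upstream, and of Gp2, against 28.3% of windows. TATAAA was in those of Tnfsf11 and Gp2, at 32 to 27 bases upstream in both, against 13.6% of windows. The AP-1 motif TGANTCA was in none of the 6, against 7.81% of windows. The matches of Tnfaip2 lie inside its annotated span, which takes in 211 of its 250 upstream bases. For Tnfrsf11a that span takes in the last 50, and its matches lie before them. All these are matches of letters and do not show binding.

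Further genes of the system were read from 7 lists that hold none of the 7 genes. Together they named 77 genes that passed the filter, of which 21 (27.3%) were at least 2-fold lower and none at least 2-fold higher, beside 5.30% and 1.15% of all genes kept. The lists were drawn up with earlier results of these data known, so this share is a description, and it differed widely between lists.

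RANK signals inside the cell through TRAF adaptors, the IKK complex and NF-κB, MAP kinases and NFATc1. None of the 21 genes kept of the 24 in this list was 2-fold different in either direction. Their median was -0.11, with 13 lower and 7 higher, against 0.02 over all genes. The largest differences were those of Jun, a subunit of AP-1, at 10.84 on the Hif-2αΔIE array and 10.31 on the Hif-2αF/F array (0.54), of Nfkb2, the precursor of the non-canonical NF-κB subunit p52, at 7.88 on the Hif-2αΔIE array and 8.32 on the Hif-2αF/F array (-0.44), and of Nfkbia, the inhibitor IκBα that NF-κB itself induces, at 12.69 on the Hif-2αΔIE array and 13.05 on the Hif-2αF/F array (-0.36). Traf6, the main adaptor of RANK, read 7.75 on both arrays. As for the receptor, the transcripts read of its signalling chain thus lay close together on these arrays. Traf3, Chuk and Nfkb1 were not found under 1 symbol and were not read.

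Of 13 further genes linked to M cells, 11 passed the filter, with a median of -0.59, 7 lower and 4 higher, and 2 at least 2-fold lower. The largest difference was that of Ccl20, a chemokine of follicle-associated epithelium that draws B cells and dendritic cells through CCR6, which read 7.10 on the Hif-2αΔIE array and 9.40 on the Hif-2αF/F array (-2.30). Aif1, found in M cells and more widely in macrophages, read 7.35 on the Hif-2αΔIE array and 8.49 on the Hif-2αF/F array (-1.14). Fabp5, a fatty acid binding protein gene, read 12.45 on the Hif-2αΔIE array and 13.28 on the Hif-2αF/F array (-0.82). The list was not lower throughout: Ccl9, a chemokine gene of early M cells, read 9.90 on the Hif-2αΔIE array and 9.37 on the Hif-2αF/F array (0.53), and Prnp, the gene of the prion protein, differed by 0.37. Sox8, a factor needed with Spi-B for M cell maturation, was below the filter on both arrays, at 3.62 on the Hif-2αΔIE array and 3.68 on the Hif-2αF/F array. Esrrg of this list was also below the filter, at 5.35 on the Hif-2αΔIE array and 6.04 on the Hif-2αF/F array. Of Spib, Sox8 and Gp2, Spib was therefore lower, while Sox8 and Gp2 were too dim on both arrays to be compared. B cells express Spib too, so its reading is not one of M cells alone.

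Lymphoid follicles form through lymphotoxin and chemokines that gather B cells, and RANKL acts on the epithelium above them. Of the 12 genes kept of the 15 in this list, 11 were lower, 9 at least 2-fold, and the median was -1.44. The lymphotoxin gene Ltb read 7.34 on the Hif-2αΔIE array and 9.01 on the Hif-2αF/F array (-1.67), whereas its receptor Ltbr read 9.96 on the Hif-2αΔIE array and 9.88 on the Hif-2αF/F array (0.09). The follicle chemokine gene Cxcl13 read 9.67 on the Hif-2αΔIE array and 11.39 on the Hif-2αF/F array (-1.72). Its receptor gene Cxcr5 read 4.67 on the Hif-2αΔIE array, below the filter, and 6.55 on the Hif-2αF/F array. Ccr6, the receptor for CCL20, differed by -1.71, and Madcam1, the vascular address for gut-homing lymphocytes, by -1.22. The B cell receptors for complement and for the survival factor BAFF, Cr2 and Tnfrsf13c, read 5.02 and 5.72 on the Hif-2αΔIE array, below the filter, against 7.17 and 6.88 on the Hif-2αF/F array. Cxcr5, Cr2, Tnfrsf13c and Fcer2a were kept through the Hif-2αF/F array only, so the filter fixed their direction. The list also shares Ccl20 with the M cell list above.

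Signals known to raise or lower RANKL or osteoprotegerin in other tissues were also lower for the most part: of 15 genes kept of 18, 12 were lower and 6 at least 2-fold, with a median of -0.89. The cytokine gene Il1b read 8.79 on the Hif-2αΔIE array and 10.90 on the Hif-2αF/F array (-2.11). Il6 read 5.05 on the Hif-2αΔIE array, below the filter, and 7.00 on the Hif-2αF/F array, so the filter fixed its direction. Il17a differed by -1.55, Osm, the gene of oncostatin M, by -1.27, the Wnt ligand gene Wnt4 by -1.20 and the prostaglandin synthase gene Ptgs2 by -1.02. Vdr, the vitamin D receptor, had the highest difference of the list, 0.59 (11.96 on the Hif-2αΔIE array and 11.37 on the Hif-2αF/F array).

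Genes of osteoclasts, the cells that RANKL forms in bone, gave a median of -0.96 over the 7 kept of 12, with 6 lower and 3 at least 2-fold. These were the gelatinase gene Mmp9 (7.77 on the Hif-2αΔIE array and 9.33 on the Hif-2αF/F array), the myeloid adaptor gene Tyrobp (9.86 on the Hif-2αΔIE array and 11.23 on the Hif-2αF/F array) and the cathepsin K gene Ctsk (7.22 on the Hif-2αΔIE array and 8.23 on the Hif-2αF/F array), all of which myeloid cells or fibroblasts express outside bone. The gene kept of this list that was not lower was Acp5. It read 10.65 on the Hif-2αΔIE array and 10.59 on the Hif-2αF/F array (0.06). Of the genes narrow to osteoclasts, Oscar, Dcstamp, Ocstamp, Atp6v0d2 and Calcr were below the filter on both arrays. Osteoprotegerin also binds TRAIL. Of 5 genes kept of 7 for its other partners and their relatives none was 2-fold different, with a median of -0.29; the TRAIL gene Tnfsf10 read 8.24 on the Hif-2αΔIE array and 7.82 on the Hif-2αF/F array (0.42), and Vwf and Sdc1 differed by -0.86 and -0.47.

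The last list set relatives of Spi-B and GP2 beside genes of the follicle-associated epithelium and had a median of 0.00 over 7 genes kept of 10. Spi1, the gene of the relative PU.1 of myeloid and B cells, read 7.11 on the Hif-2αΔIE array and 8.39 on the Hif-2αF/F array (-1.28), and the lymphocyte factor gene Ets1 read 8.01 on the Hif-2αΔIE array and 9.18 on the Hif-2αF/F array (-1.18). The lysozyme gene Lyz1 differed by -0.73. The epithelial ETS factor genes Ehf and Elf3, relatives expressed in epithelium, differed by 0.19 and 0.00. The relatives of Gp2 with a zona pellucida domain, Umod, Tecta and Cuzd1, were below the filter like Gp2.

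**Figure D3:**
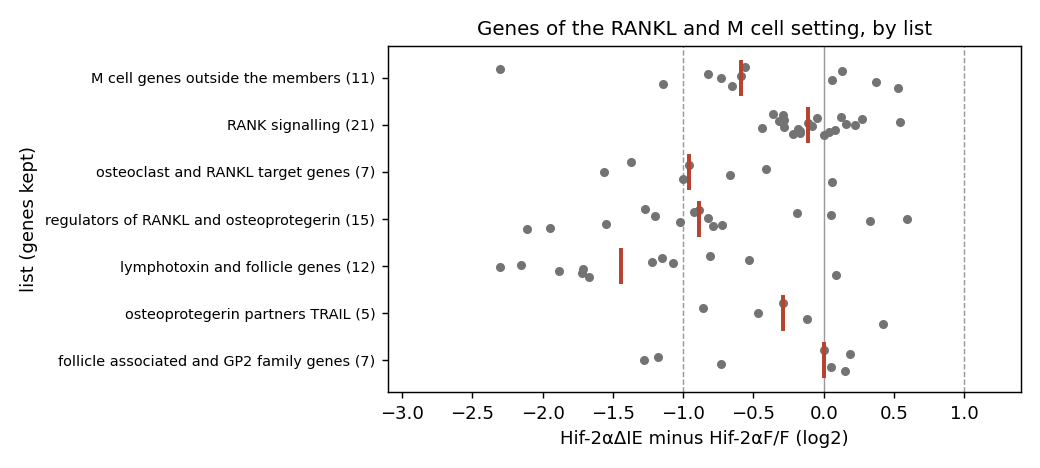
Differences between the Hif-2αΔIE and Hif-2αF/F arrays (log2, horizontal axis) for the genes kept of each of the 7 lists, with 1 point per gene, red bars at the medians and dashed lines at 2-fold. The RANK signalling genes lie within 0.54 of 0, while the lymphotoxin and follicle genes have a median of -1.44.

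Within the TNF family, 14 other genes whose symbols name them as TNF superfamily ligands or receptors passed the filter, a set chosen after the values were seen. Their median was -0.28. Of the 14, 2 were at least 2-fold lower and none at least 2-fold higher, beside 5.30% and 1.15% of all genes kept. These 2 were Tnfrsf13b (6.39 on the Hif-2αΔIE array and 7.81 on the Hif-2αF/F array) and Tnfrsf13c, both receptors of B cells. In the ranking of all genes kept, the genes next to Tnfsf11 were Cyp2c68 (-2.13), B3gnt7 (-2.12), Il1b (-2.11) and Gpr137b (-2.09), and those next to Tnfrsf11b were Ighv14-2 (-2.54), Mmp13 (-2.53), Atp12a (-2.42) and Bank1 (-2.40). With 2 arrays this nearness means only that the differences were alike in size.

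Markers of the cells that make these transcripts were mostly lower as well, and in a scraping fewer cells of a type cannot be told apart from less RNA per cell. Cr2, Fcer2a, Cxcl13, Madcam1, Csf1r and Vwf stand both among these markers and in the lists above. Pdpn is counted for both fibroblasts and lymphoid stroma. Lists that share genes are not separate readings. For comparison, 5.30% of all genes kept were at least 2-fold lower, and their median difference was 0.02, with quartiles of -0.18 and 0.19. Beside Spib, which B cells express too, all 8 B cell markers kept of 9 were lower, 7 at least 2-fold, and the log2 of their summed level was 9.51 on the Hif-2αΔIE array and 11.46 on the Hif-2αF/F array. Ms4a1, the gene of CD20, read 7.38 on the Hif-2αΔIE array and 10.06 on the Hif-2αF/F array. Ms4a1, Cd79a, Cd79b and Cd22, above the filter on both arrays, differed by -2.68, -1.67, -1.88 and -1.73. Cr2, Fcer2a, Pax5 and Blk were kept through the Hif-2αF/F array only, so the filter fixed their direction. Beside Tnfsf11 and Tnfrsf11b, which stromal cells make, all 7 fibroblast markers were lower (median -0.94; log2 summed level 14.33 on the Hif-2αΔIE array and 15.09 on the Hif-2αF/F array) and so were all 4 markers kept of lymphoid stroma (-1.12; log2 summed level 10.79 on the Hif-2αΔIE array and 12.13 on the Hif-2αF/F array). T cells are another source of RANKL. Of 8 T cell markers 6 were kept, all 6 of them lower and 1 at least 2-fold, with a median of -0.57 (log2 summed level of all 8 was 9.64 on the Hif-2αΔIE array and 10.26 on the Hif-2αF/F array), and the largest difference was that of the costimulator gene Icos (6.81 on the Hif-2αΔIE array and 8.26 on the Hif-2αF/F array, -1.45). Cd3g, Cd28 and Cd3d differed by -0.65, -0.61 and -0.53, and Cd4 read 6.34 on the Hif-2αΔIE array and 6.35 on the Hif-2αF/F array. Beside Tnfaip2, which myeloid and endothelial cells express as well, the 7 macrophage, 6 neutrophil and 6 endothelial markers were all lower, with medians of -1.04, -1.48 and -0.86. The summed levels of the macrophage markers were 12.58 on the Hif-2αΔIE array and 13.62 on the Hif-2αF/F array, those of the neutrophil markers 14.30 on the Hif-2αΔIE array and 15.08 on the Hif-2αF/F array, and those of the endothelial markers 10.03 on the Hif-2αΔIE array and 10.86 on the Hif-2αF/F array (all log2). Such a sum mostly follows its brightest probe sets and does not speak for a whole list. In the neutrophil list these were S100a8 (-0.66) and S100a9 (-0.80), and in the lymphoid stroma list Cxcl13. Dendritic cell markers had a median of -0.32 over 5 genes. Of 8 markers of innate lymphoid cells only 2 could be used, Il7r (-0.92) and Kit (0.93). Posterior Hox genes (7 kept, median -1.49), which follow the position along the gut, and squamous epithelium markers (5 kept, -1.36) were lower too. Hoxa13, Hoxd11 and Hoxa10 were kept through the Hif-2αF/F array only, as were Cd28, Itgam and Siglech of the lists above, so the filter fixed their direction. The Hox genes above the filter on both arrays, Hoxb13, Hoxd13, Hoxd10 and Hoxa11, differed by -2.83, -2.82, -1.44 and -0.38. Smooth muscle markers differed little (-0.08). The part of these cells and of position in the differences of the 7 genes was not tested.

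**Figure D4:**
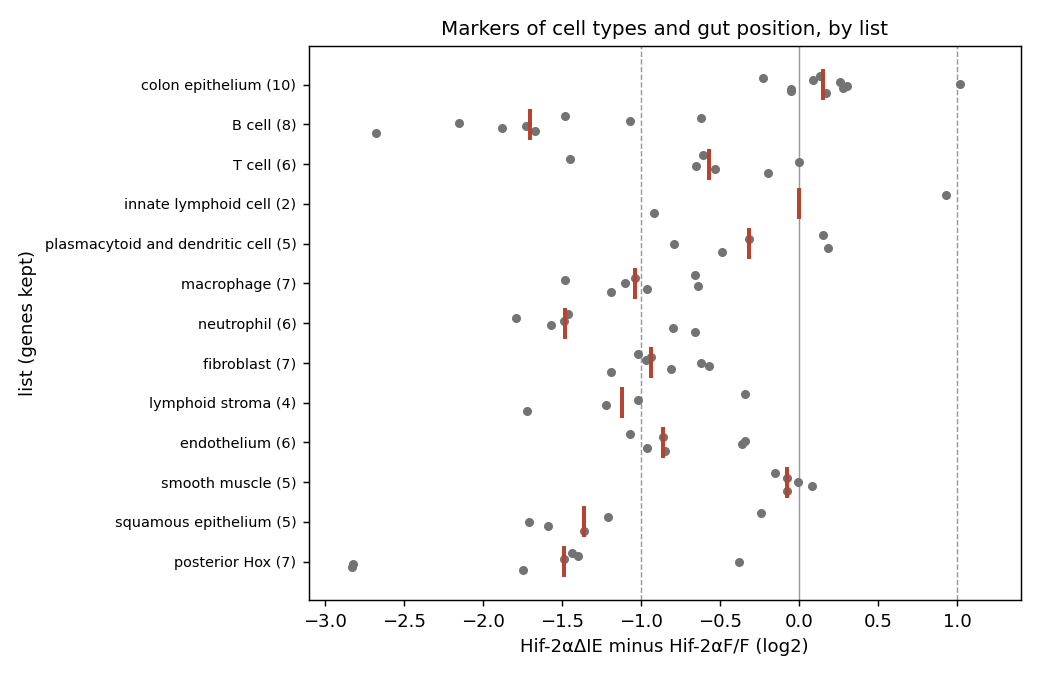
Differences between the Hif-2αΔIE and Hif-2αF/F arrays (log2, horizontal axis) for marker genes kept of 13 cell type and position lists, with 1 point per gene, red bars at the medians and dashed lines at 2-fold. Colon epithelium and smooth muscle markers centre near 0 (0.15 and -0.08), and B cell markers have a median of -1.70.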

How the data were processed

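The authors deposited log2 expression values of 45101 probe sets for 2 samples, made with the affy package and RMA, per the submitters' processing notes; the sources used here do not give versions or say which arrays were normalized together. RMA's quantile step makes the distributions of arrays alike, so a change shared by most genes would not show, and depth is limited by the number of arrays. Groups came from the genotype label. Gene symbols came from the platform annotation, in which 34958 probe sets had 1 symbol, 932 had several and 9211 had none; the 64 control probe sets were left out. List genes not found under 1 symbol were not analysed here. A gene took its brightest probe set, and genes were counted at 2-fold. No test was possible. The summed level of a marker list is the log2 of the sum of its unlogged values over all matched genes. The members and lists were chosen with earlier results of these data known. Named were all 7 members, genes of the 7 pathway lists at 2-fold (at most 8 a list) or the 3 of largest difference, and the 4 genes ranked next to Tnfsf11 and Tnfrsf11b; others named, those of the 13 marker lists included, were chosen after their values were seen. Counting was checked on simulated data. Promoters are from RefSeq (GRCm38.p6). Alternatives were averaged probe sets, leaving out _s_at and _x_at probe sets, median centring, lowess (span 0.3), other filters and thresholds of 1.5-fold and 3-fold. Python 3.11.15, numpy 2.4.6, pandas 2.3.3, statsmodels 0.14.6 and matplotlib 3.10.9 were used.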

Additional observations from a re-analysis of the deposited data

How the results depend on the processing

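All 27 values of the 7 genes under other probe set rules and scalings had the sign given in the report. Of these, 24 lay within 0.41 of the value given there. That limit is the 95th percentile of the gap between probe sets of a gene. The count says little about robustness, since most of these values could hardly move. Median centring and lowess shifted every member little, Tnfsf11 to -2.1 and -2.16. Leaving out _s_at and _x_at probe sets changed the probe set of Marcksl1 and Tnfaip2 only, and averaging cannot change Spib and Gp2. The values outside this limit all came from averaging probe sets. Tnfsf11 then differed by -1.63, Tnfrsf11b by -1.89 and Tnfaip2 by -1.12, since their dimmer probe sets differed less. Without _s_at and _x_at probe sets Marcksl1 had none left. Of 49 list medians 48 lay within the same limit; without a filter the osteoclast list had -0.54. Over all genes kept, 381 were lower with a filter at the 75th percentile; 1267 were lower and 520 higher at 1.5-fold, and 177 lower and 20 higher at 3-fold. Of lymphotoxin and follicle genes, 4 were called lower with the 75th percentile filter and 5 where both arrays had to pass. These filters keep fewer genes, and the totals kept are not given here, so the counts are not shares. The median of that list was -1.22 and -1.44 under them. M cell genes outside the 7 gave 1 without _s_at and _x_at probe sets, 6 at 1.5-fold and 1 at 3-fold, osteoclast genes 5 at 1.5-fold and 0 at 3-fold, regulators 11 and 2, TRAIL partners 1 at 1.5-fold, and the list with Gp2's relatives 1 with probe sets averaged and 0 at 3-fold. No paired analysis was possible because each genotype has 1 array. Signal over background limits Gp2, Sox8 and the Hif-2αΔIE readings of Tnfsf11 and Tnfrsf11b, which lie below the filter.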
